A study of Mus musculus with 12 samples.

Results

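The 8 high-fat arrays of a 12-array study of mouse adipose tissue divided into 2 sets of 4 by the signal of Adam7, a membrane protein gene of the ADAM family made in the epididymis. Adam7, read from its probe set of highest mean, lay above 11 log2 units in 14-day array 4 and 5-day arrays 1, 2 and 3 (the Adam7-high arrays), and below 11 in 5-day array 4 and 14-day arrays 1, 2 and 3 (the Adam7-low arrays). Values of a gene are given below in the order 5-day arrays 1, 2, 3 and 14-day array 4 for the first set and 5-day array 4, 14-day arrays 1, 2, 3 for the other. The lowest value above the threshold was 13.07 and the highest below it was 8.12, so no array lay near it. The split was made on the measured values, and differences along it are therefore given as a description with no test.

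All mice were C57Bl/6. They were kept in groups, and diets diverged when they were 6 weeks old: 4 chow samples came from mice on food with 13% of its calories as fat, and the high-fat samples from mice given 46% for 5 days (4 samples) or 14 days (4 samples). No genetic change or drug is named for any group. The labels name neither the fat depot nor the sex, and nothing says that the samples of a group came from separate animals, so p-values measure only the spread between these samples. The split was unbalanced for time: 3 of the Adam7-high arrays were from 5 days, against 1 of the Adam7-low arrays. Differences within each time point are for this reason given beside the pooled ones for the gene counts and for some lists and genes. Where only a pooled value is given, the time of diet is not separated from the split.

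The epididymis is the coiled duct in which sperm mature, and in male mice it lies against the epididymal fat pad, a depot often sampled in diet studies. Its epithelium secretes beta-defensins, protease inhibitors of the Spink, Wfdc and serpin families, lipocalins and proteins that coat sperm, with sets that change from the head of the duct (caput) to its tail. Principal cells do most of this, clear and narrow cells acidify the fluid, basal cells lie beneath them, and smooth muscle surrounds the duct. Ciliated cells line the efferent ducts, which lead from the testis into the caput.

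All samples carried clear adipocyte signal: the adipocyte identity list averaged 13.20 to 13.76 in every array, and Adipoq, the adiponectin gene, stood between 14.90 and 15.05. Values are log2 signals as deposited, from 4.18 to 15.50, with array medians between 8.09 and 8.14, and pairs of arrays correlated at 0.956 to 0.997. Precision is limited by the 4 arrays on each side. As a measure of RNA quality, the 3' probe set of the pyruvate carboxylase control exceeded its 5' probe set by 2.83 in 5-day array 4. The excess was 2.18 in 14-day array 2 and 2.10 in 14-day array 4, against 1.59 to 1.96 in the others. The part of RNA quality in the results below was not tested. In bulk tissue, fewer cells of a type and less RNA per cell cannot be told apart.

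Of 18193 genes, 337 (1.85%) were at least 1 log2 unit higher in the mean of the Adam7-high arrays with no overlap between the 4 and 4 arrays, and 4 (0.022%) were lower by the same rule. At 0.5 units the counts were 638 (3.51%) and 83 (0.456%), and at 2 units 127 (0.698%) and 0. Among the 337 genes, 210 differed by 1 to 2 units, 55 by at least 3 and 20 by at least 5. The lower count moved when 1 array was left out: it was 69 without 14-day array 2, 39 without 5-day array 2, 12 without 14-day array 3 and 8 without 5-day array 1. By the same rule, within the 5-day arrays alone 321 genes (1.76%) were higher and 188 (1.03%) lower, 3 arrays against 1, and within the 14-day arrays alone 860 (4.73%) and 332 (1.82%), 1 array against 3. Without a minimum size the balance turned, with 1218 genes (6.69%) higher and 1390 (7.64%) lower with no overlap.

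**Figure D1:**
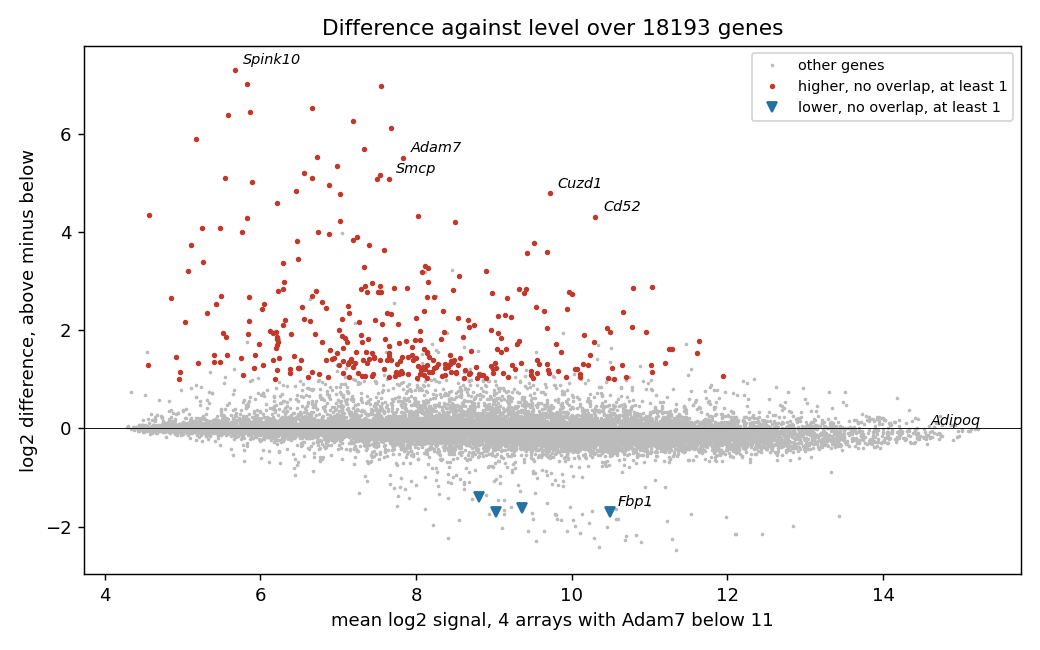
Each point is a gene; the horizontal axis is its mean log2 signal in the 4 Adam7-low arrays and the vertical axis the log2 difference, Adam7-high minus Adam7-low. The 337 genes higher by at least 1 with no overlap (red) spread over low and middle signals, and the 4 lower genes (blue triangles) lie between −1.71 and −1.40.

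Promoter sequences of 4 genes are shown as examples. These genes had large differences, were high in the same 4 arrays, and each carries a motif marked below. They do not stand for the higher genes as a set, for which shares are given in the next paragraph. The sequences are the 250 bases before the RefSeq transcript start (GRCm38.p6, 5′ to 3′ on the gene's strand). For Ceacam10 another, overlapping start window is not shown. Capitals mark AGAACA, the half-site bound by the androgen receptor and related steroid receptors, or TATAAA, the TATA box, on either strand. Ceacam10, which codes for a member of the carcinoembryonic antigen adhesion family, is shown at chr7:24776917-24777166 (+ strand), Wfdc15b, which codes for a secreted WAP-domain protein, at chr2:164221664-164221913 (- strand), Glb1l3, which codes for a protein related to beta-galactosidase, at chr9:26860824-26861073 (- strand), and Lcn5, which codes for a retinoid-binding lipocalin of the caput, at chr2:25657702-25657951 (+ strand).
Ceacam10: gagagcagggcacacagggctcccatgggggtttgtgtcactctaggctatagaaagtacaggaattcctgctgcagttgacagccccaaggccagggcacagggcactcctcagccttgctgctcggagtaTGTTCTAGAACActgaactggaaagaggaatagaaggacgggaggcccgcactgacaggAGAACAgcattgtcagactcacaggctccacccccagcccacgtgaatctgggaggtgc
Wfdc15b: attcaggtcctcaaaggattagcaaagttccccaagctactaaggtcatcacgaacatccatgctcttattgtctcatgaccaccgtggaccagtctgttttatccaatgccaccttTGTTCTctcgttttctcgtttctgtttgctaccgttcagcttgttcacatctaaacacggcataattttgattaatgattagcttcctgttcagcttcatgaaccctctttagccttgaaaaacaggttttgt
Glb1l3: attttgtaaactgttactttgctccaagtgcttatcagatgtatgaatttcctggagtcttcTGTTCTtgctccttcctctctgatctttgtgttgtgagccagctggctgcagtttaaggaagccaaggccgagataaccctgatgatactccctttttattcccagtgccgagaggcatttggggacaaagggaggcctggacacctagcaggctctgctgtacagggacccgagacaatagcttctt
Lcn5: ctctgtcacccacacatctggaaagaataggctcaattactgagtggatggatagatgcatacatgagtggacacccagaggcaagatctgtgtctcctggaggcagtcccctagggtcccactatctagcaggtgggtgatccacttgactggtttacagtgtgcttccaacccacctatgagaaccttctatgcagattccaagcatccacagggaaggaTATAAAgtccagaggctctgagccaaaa

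RefSeq promoters of this table were matched by symbol for 261 of the 337 higher genes (336 start windows) and for 14452 of all genes on the array (18109 windows). AGAACA on either strand was in 13.4% of the windows of the higher genes and 12.6% of all windows, and TATAAA in 10.4% and 8.81%. The palindromic androgen response element, made of a pair of such half-sites, was in 0 of 336 and 2 of 18109 windows. These shares lie close together. Of the genes higher by at least 3 units, 42 had 49 windows, with a median GC content of 50.8% against 57.6% over all windows, and GGGCGG (either strand) was in 28.6% against 48.3%. In the same 49 windows AGAACA was in 18.4% and TATAAA in 6.12%. By gene, 8 of the 42 had AGAACA and 3 had TATAAA. A match says only that these letters are in the window.

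The largest difference was that of Spink10, a Kazal-type protease inhibitor gene: Spink10 stood at 12.70, 12.59, 13.05 and 13.54 in the Adam7-high arrays, at 5.46, 5.70, 5.76 and 5.77 in the Adam7-low arrays and at 5.77, 5.73, 5.69 and 5.73 in chow arrays 1 to 4. The arrays did not overlap, the chow values lay beside the Adam7-low ones, and the means were 12.97 ± 0.43 against 5.67 ± 0.14 (SD, n = 4), a difference of 7.30. Spink8 stood at 14.28, 14.34, 14.45 and 14.96 in the Adam7-high arrays, at 7.20, 6.85, 8.87 and 7.25 in the Adam7-low arrays and at 7.12, 7.32, 8.38 and 7.51 in chow arrays 1 to 4, for a difference of 6.96. Spink8, also a Kazal-type inhibitor gene, is near its floor in most other arrays, but 14-day array 2 and chow array 3 stood above the rest of their sets. Adam7 stood at 13.07, 13.09, 13.29 and 13.89 in the Adam7-high arrays, at 7.40, 7.84, 8.12 and 7.95 in the Adam7-low arrays and at 8.23, 7.79, 8.37 and 8.32 in chow arrays 1 to 4. Adam7 differed by 5.51, the value that follows from the split.

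The other genes among the 15 with the largest differences had the same shape. The serpin gene Serpina1f differed by 6.52 and Wfdc15b by 6.12. Wfdc6a, also of the WAP-domain family, differed by 5.34. Enzyme and surface protein genes were among them, with Glb1l3 at 6.44, Ceacam10 at 6.39 and Ly6f, of the Ly6 family of membrane-anchored proteins, at 5.15. The 3 probe sets of Ceacam10 were unlike, with differences from 0.26 to 6.39. The beta-defensin gene Defb42 differed by 5.70, Odam, a secreted protein gene named for ameloblasts, by 5.90, and Tmed6, of the p24 cargo receptor family of the secretory pathway, by 5.54. The less studied genes Gm4988, BC048679 and Pwwp3b differed by 7.02, 6.26 and 5.20. Serpina1f stood at 12.83, 12.67, 12.72 and 14.51 in the Adam7-high arrays, at 6.11, 6.07, 8.28 and 6.20 in the Adam7-low arrays and at 6.08, 6.12, 6.46 and 6.38 in chow arrays 1 to 4. Among the Adam7-low arrays only 14-day array 2 stood above 7 for Serpina1f.

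**Figure D2:**
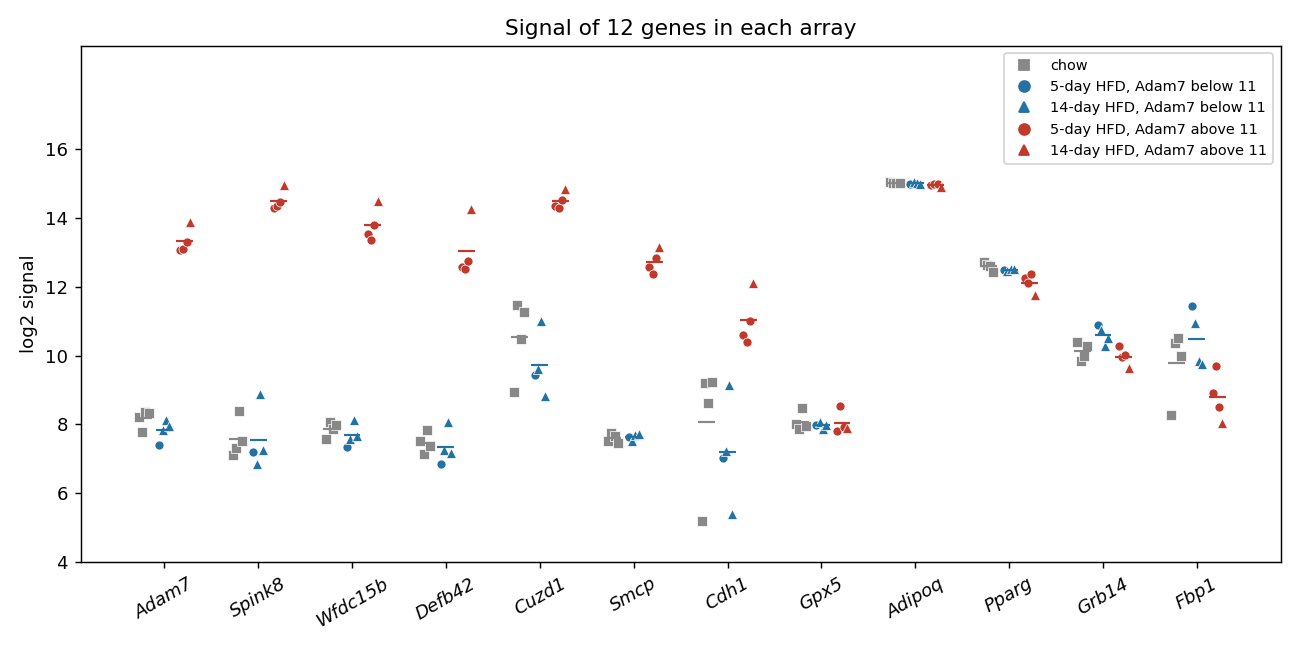
Log2 signal (vertical axis) of 12 genes in each of the 12 arrays; each symbol is 1 array and each short line the mean of 4. Adam7, Spink8, Wfdc15b, Defb42, Cuzd1, Smcp and Cdh1 are higher in all Adam7-high arrays (red), Gpx5 and Adipoq overlap, and Pparg, Grb14 and Fbp1 are lower without overlap.

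Of the list of protease inhibitors of the epididymis, 10 of 13 measured genes were higher with no overlap, against 6.69% of all genes, with a median difference of 3.96 against −0.031 over all genes. Besides those above, they included Spint4, a Kunitz-type inhibitor gene, and Eppin, whose product binds to sperm and semen proteins. Of the epididymal defensin list, 9 of 14 were higher with no overlap (6.69% of all genes), with a median of 1.46. This median was 0.79 at 5 days and 2.915 at 14 days. Defb11 differed by 4.96 and Defb9 by 3.74. Defb11 was read by a probe set that may also match related sequences, so its signal may be shared with near copies. By name, 8 of 20 measured Defb genes, 4 of 7 Spink genes and 3 of 3 Spint genes were among the 337, against 1.85% of all genes. Spink8 is in the protease inhibitor list and among the Spink genes. It gives the same split as Adam7, so its part in these counts follows from the split.

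Some of these genes are neighbours in the genome. In the RefSeq order of GRCm38.p6, 16473 measured genes were placed, 332 of them higher. Of these 332, 43 stood in 18 runs of at least 2 adjacent measured genes, where 1.85% of all genes were higher. How many adjacent genes a random draw would give was not tested. The longest was the run Defb1, Defb2, Defb10, Defb9 and Defb11. The protease inhibitor genes Wfdc6a, Eppin and Spint4 formed another, as did Clic3, Ptgds and Lcn12. Ptgds, the lipocalin-type prostaglandin D synthase gene, differed by 2.85. The defensin run is of 1 gene family, and its probe sets may share sequence, while Clic3 belongs to a chloride channel family and Lcn12 to the lipocalins.

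Sperm-coating and duct surface proteins were high against a background of signal in the other arrays. Cd52 stood at 14.58, 14.52, 14.56 and 14.75 in the Adam7-high arrays, at 10.24, 9.94, 10.73 and 10.29 in the Adam7-low arrays and at 10.54, 10.44, 10.45 and 10.61 in chow arrays 1 to 4. Cd52 codes for a short lipid-anchored glycoprotein that passes from epididymal epithelium to sperm and is also made by lymphocytes, and its sets of high-fat arrays did not overlap (difference 4.30). Cuzd1 stood at 14.34, 14.29, 14.53 and 14.85 in the Adam7-high arrays, at 9.43, 9.60, 11.02 and 8.83 in the Adam7-low arrays and at 8.96, 11.47, 10.48 and 11.27 in chow arrays 1 to 4. Cuzd1, a membrane protein gene with CUB and zona pellucida domains, differed by 4.78, but its chow and Adam7-low arrays were widely spread, with 14-day array 2 and chow arrays 2 and 4 high. The list of sperm-coating and membrane proteins had 4 of 6 measured genes higher with no overlap (6.69% of all genes) and a median of 0.65.

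Genes of the first part of the duct were mostly near the floor. Of the list for caput and initial segment, 4 of 14 measured genes were higher with no overlap (Spink8, Adam7, Lcn5 and Crisp4; 6.69% of all genes were) and the median difference was 0.048. The mean of the list was 8.48 ± 0.29 in the Adam7-high arrays, 6.94 ± 0.09 in the Adam7-low arrays (SD, n = 4), and its chow arrays lay between 6.80 and 7.22. Adam7 set the split and Spink8 gives the same split, so their part in this count and mean follows from it. Gpx5, an abundant secreted glutathione peroxidase gene of the caput, stood between 7.82 and 8.52 in all 12 arrays and overlapped. Crisp4 stood at 8.77, 8.89, 9.53 and 10.13 in the Adam7-high arrays, at 5.18, 5.28, 5.33 and 5.21 in the Adam7-low arrays and at 5.45, 5.29, 5.31 and 5.22 in chow arrays 1 to 4. Crisp4, a cysteine-rich secretory protein gene of the epididymis, was higher in each Adam7-high array, by 4.08 in the mean.

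Epithelial genes were higher as well, from a base that differed between arrays. Of the general epithelium list, 16 of 27 were higher with no overlap, against 6.69% of all genes, and 25 were higher on average, with a median of 0.96; the list mean was 9.84 ± 0.50 against 8.51 ± 0.36, and 8.84 ± 0.43 in chow (SD, n = 4). Cdh1 stood at 10.59, 10.38, 11.01 and 12.11 in the Adam7-high arrays, at 7.02, 7.22, 9.13 and 5.40 in the Adam7-low arrays and at 5.20, 9.21, 8.61 and 9.24 in chow arrays 1 to 4. Cdh1 codes for E-cadherin of epithelial junctions and differed by 3.83. Prom1, the gene of the apical membrane protein prominin, differed by 3.57, and Cldn8, a tight junction claudin gene, by 3.99. For Cdh1 and Prom1, chow arrays 2, 3 and 4 and 14-day array 2 stood well above chow array 1 and 14-day array 3. Cldn8 stood at 8.90, 9.03, 9.61 and 11.49 in the Adam7-high arrays, at 5.33, 5.63, 6.23 and 5.88 in the Adam7-low arrays and at 5.87, 5.50, 5.61 and 5.89 in chow arrays 1 to 4. Cldn8, in contrast, was low in all chow arrays.

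Transcription factors of the Wolffian duct, the embryonic source of the epididymis, had 4 of 14 measured genes higher with no overlap and 1 lower (Esr1), with a median of 0.47. Over all genes these shares were 6.69% and 7.64%, and the counts of this paragraph are to be read against them. Emx2 stood at 9.60, 9.28, 10.30 and 11.81 in the Adam7-high arrays, at 7.05, 7.16, 8.54 and 6.63 in the Adam7-low arrays and at 7.09, 8.65, 8.35 and 8.71 in chow arrays 1 to 4. Emx2 differed by 2.90, Gata3 by 2.68 and Pax8 by 1.79, and all 3 act in the development of the duct. The other probe set of Pax8 differed by 0.16. Of the clear and narrow cell list, 6 of 10 were higher with no overlap (median 0.50), among them the carbonic anhydrase gene Car2 (2.29) and Foxi1 (1.30), a transcription factor gene of acid-secreting cells. Of the basal cell list, 4 of 7 were higher, among them Trp63 (1.06) and the keratin gene Krt5 (0.75). The median of the basal cell list was 0.55 at 5 days and 1.46 at 14 days. For Trp63 the mean of its probe sets differed by 0.34, so its probe sets disagree. Aqp9, a water and glycerol channel gene of principal cells, differed by 1.83, the largest of 13 transport genes, of which 3 were higher with no overlap.

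Transcripts of sperm and germ cells were in the same arrays. Of 20 testis germ cell genes, 13 were higher with no overlap and 1 (Sycp3) was lower, against 6.69% and 7.64% of all genes, with a median of 0.86. Smcp stood at 12.57, 12.36, 12.83 and 13.15 in the Adam7-high arrays, at 7.64, 7.52, 7.69 and 7.73 in the Adam7-low arrays and at 7.52, 7.74, 7.67 and 7.47 in chow arrays 1 to 4. Smcp codes for a protein of the sperm mitochondrial capsule and differed by 5.08, with chow and Adam7-low arrays at one level. Odf1, for the outer dense fibres of the sperm tail, differed by 3.91, Crisp2, for a sperm protein of the acrosome and tail, by 2.65, and Prm2, for a protamine that packs sperm DNA, by 2.32. Prm2 stood at 9.92, 9.65, 10.08 and 10.35 in the Adam7-high arrays, at 7.49, 7.61, 7.85 and 7.78 in the Adam7-low arrays and at 7.67, 7.82, 7.72 and 7.61 in chow arrays 1 to 4. Of the Leydig and Sertoli cell list 1 of 9 was higher with no overlap, the steroid hydroxylase gene Cyp17a1 (2.78), and of the seminal vesicle and prostate list 1 of 11, Pate4 (2.70). These counts of 1 gene lie near the 6.69% of all genes and are no result about those lists.

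The 337 genes did not have one level across the Adam7-high arrays. In 326 of them 14-day array 4 was the highest of all 8 high-fat arrays, and in 11 it was 5-day array 3. The genes were chosen with 14-day array 4 among the arrays, and 256 of the 337 were found again without it. These counts and gaps therefore follow in part from the choice. The lowest of the Adam7-high arrays was 5-day array 2 in 231 genes, 5-day array 1 in 84 and 5-day array 3 in 22. The median gap between 14-day array 4 and the mean of 5-day arrays 1 to 3 was 1.06, from 0.098 to 5.00. Of the genes higher by at least 1 unit within a time point, both shared 308, which are 96.0% of those at 5 days and 35.8% of those at 14 days. Likewise they shared 87 lower genes, 46.3% and 26.2%.

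**Figure D3:**
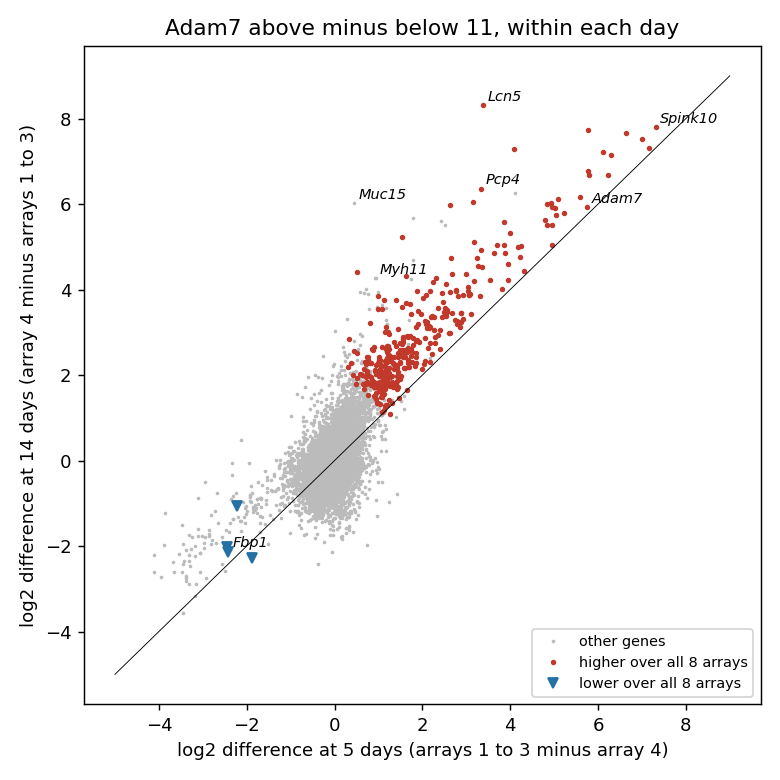
Each point is a gene; the horizontal axis is the log2 difference between Adam7-high and Adam7-low arrays at 5 days and the vertical axis that at 14 days. Most of the 337 genes (red) lie above the line of equal difference, and Muc15 and Lcn5 stand out with 6.03 and 8.31 at 14 days against 0.45 and 3.38 at 5 days.

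Some genes varied widely among the Adam7-high arrays. Lcn5 stood at 8.44, 9.13, 11.05 and 14.54 in the Adam7-high arrays, at 6.17, 6.04, 6.30 and 6.34 in the Adam7-low arrays and at 6.08, 6.19, 8.78 and 6.36 in chow arrays 1 to 4. Lcn5 was thus graded over the Adam7-high arrays, and chow array 3 reached above 5-day array 1. Spint4 stood at 9.36, 9.33, 12.67 and 13.78 in the Adam7-high arrays, at 6.35, 6.50, 6.48 and 6.49 in the Adam7-low arrays and at 6.51, 6.56, 6.80 and 6.39 in chow arrays 1 to 4. Spint4 reached its top values in 14-day array 4 and 5-day array 3; the remaining 5-day arrays of the Adam7-high set were lower but above chow. Pcp4 stood at 11.56, 11.22, 7.02 and 13.15 in the Adam7-high arrays, at 6.59, 6.73, 6.85 and 6.79 in the Adam7-low arrays and at 6.87, 6.89, 6.80 and 7.09 in chow arrays 1 to 4. Pcp4, a calmodulin regulator gene, had the opposite order at 5 days, with 5-day array 3 near the chow values. In all, 26 genes were at least 2 units higher in 14-day array 4 than in every other array, and 10 of these were among the 337 (1.85% of all genes). Muc15, a membrane mucin gene, stood at 11.89 there and between 5.70 and 6.43 in the other 11 arrays. Spint4, Eppin, Muc15, Pcp4 and Myh11 were picked after their values were seen.

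Smooth muscle genes were high in part of the Adam7-high arrays. Of 18 measured, 16 were higher on average but 1 had no overlap (Hhip), near the 6.69% of all genes, with a median of 0.76. The list mean was 11.12 ± 1.03 against 10.12 ± 0.29 (SD, n = 4), and 10.19 ± 0.16 in chow. Myh11 stood at 11.95, 11.70, 9.63 and 14.06 in the Adam7-high arrays, at 10.17, 9.22, 10.67 and 9.47 in the Adam7-low arrays and at 9.49, 9.90, 10.17 and 10.13 in chow arrays 1 to 4. Myh11, the smooth muscle myosin gene, was highest in 14-day array 4, followed by 5-day arrays 1 and 2, while 5-day array 3 lay among the chow and Adam7-low values. The list mean differed by 0.51 at 5 days and 2.32 at 14 days. Without 14-day array 4 the pooled difference was 0.57, and without 5-day array 3 it was 1.41. For Myh11 it was 1.21 without 14-day array 4. Skeletal muscle genes were higher on average in 13 of 14, again with 1 without overlap (Mb), but the list mean was high in 5-day array 2 (11.83) and chow array 3 (12.09) while every other array lay within 8.01 to 9.01.

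Ciliated cell genes of the efferent ducts had a pattern of their own. Of 13 measured, 0 had no overlap in either direction, where 6.69% of all genes were higher and 7.64% lower. With so few genes a count of 0 lies near these shares. The median difference was −0.29 in the pooled arrays, −0.054 at 5 days and −0.59 at 14 days. Cldn2 stood at 10.38, 7.87, 8.70 and 8.85 in the Adam7-high arrays, at 9.52, 9.89, 11.70 and 8.38 in the Adam7-low arrays and at 8.05, 12.03, 11.36 and 11.92 in chow arrays 1 to 4. Cldn2, a claudin gene of leaky epithelia, was high in chow arrays 2, 3 and 4 and 14-day array 2, lower in 5-day array 1 and lowest in 5-day array 2, and the sides overlapped. Foxj1, the master regulator gene of motile cilia, and Tmem212 had the same high arrays, with differences of −0.61 and −0.81 along the split. These rested on 14-day array 2: without it the differences were −0.18 for Foxj1, −0.25 for Tmem212 and −0.31 for Cldn2. The grouping of arrays seen in Cldn2, Foxj1 and Tmem212 was applied to all 18193 genes. It set chow arrays 2 to 4 and 14-day array 2 against chow array 1, 5-day array 4 and 14-day arrays 1 and 3. In 60 genes each array of the first set was at least 1 unit above every array of the second. Of these, 10 were among the 337 genes, which are 1.85% of all genes; the 337 were chosen with some of the same arrays. The grouping came from values already seen, so the genes that gave it meet it by choice. In epithelial and ciliary genes such as Cdh1 and Foxj1, 14-day array 2 stood above the other Adam7-low arrays. Among the 337 genes, 14-day array 2 was the highest of the Adam7-low arrays in 182.

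**Figure D4:**
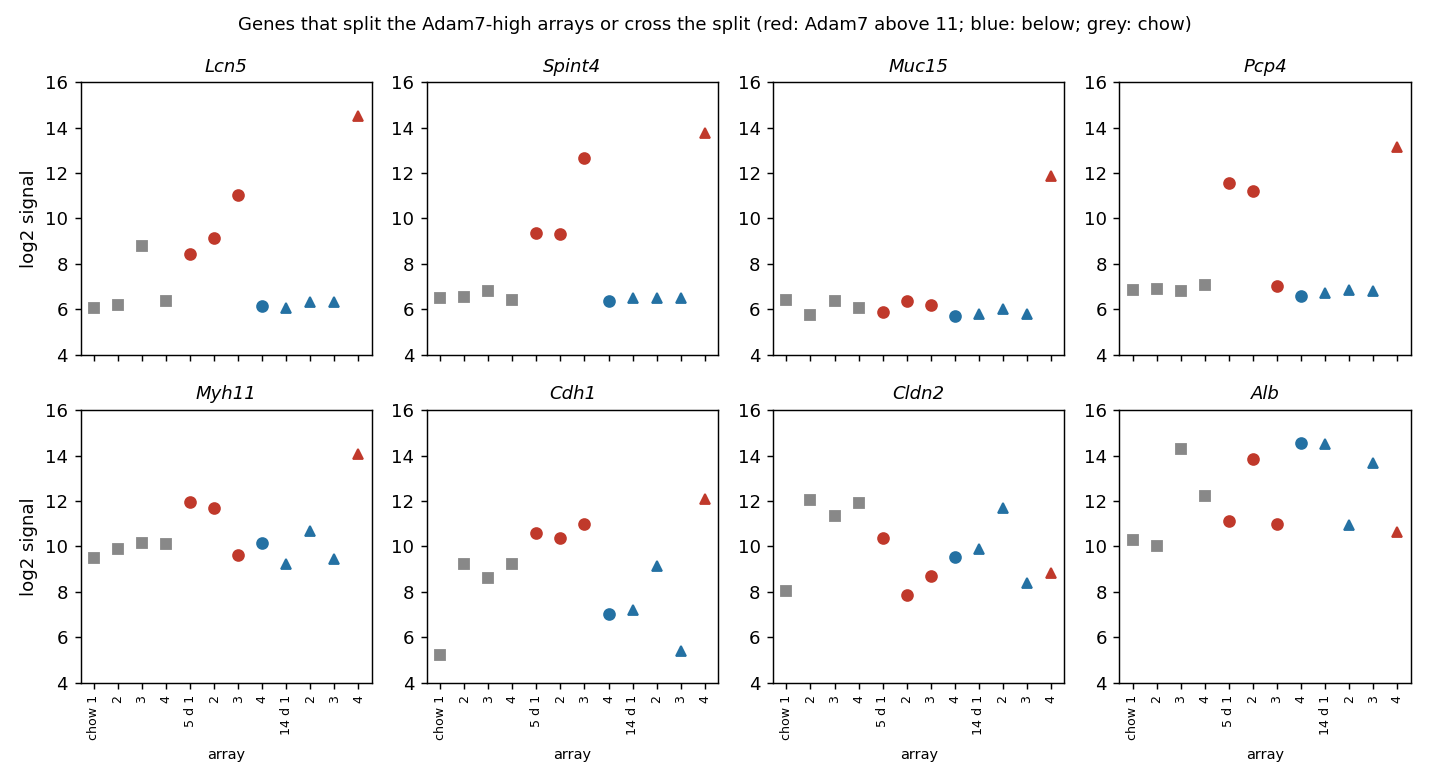
Log2 signal (vertical axis) of 8 genes in the 12 arrays (horizontal axis); red, blue and grey mark Adam7-high, Adam7-low and chow arrays. Lcn5, Spint4, Muc15, Pcp4 and Myh11 differ among the red points, Cldn2 and Cdh1 are high in grey or blue points too, and Alb is highest in 5-day array 4, at 14.56.

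Against chow, 318 of the 337 genes had every chow array below every Adam7-high array, and in 19 a chow array reached into them. The chow mean lay within 0.5 units of the Adam7-low mean in 290 genes, over 0.5 above it in 45 and over 0.5 below it in 2. The median of chow minus Adam7-low was 0.10. The 337 genes were chosen for high values in the Adam7-high arrays, so the count of 318 follows in part from the choice. The shares over all genes were not computed for these chow counts, so they are a description only.

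Genes of adipocytes were lower in the Adam7-high arrays by small amounts. All 25 measured genes of the adipocyte identity list were lower on average and 10 had no overlap (7.64% of all genes), with a median of −0.23 against −0.031 over all genes. The list mean was 13.46 ± 0.18 against 13.71 ± 0.04 (SD, n = 4), and 13.60 ± 0.04 in chow. Pparg stood at 12.24, 12.12, 12.38 and 11.75 in the Adam7-high arrays, at 12.49, 12.46, 12.50 and 12.51 in the Adam7-low arrays and at 12.73, 12.62, 12.59 and 12.44 in chow arrays 1 to 4. Pparg, the master regulator gene of fat cells, differed by −0.37, 22.6% lower, and its Adam7-low arrays lay close together; the difference was −0.25 without 14-day array 4. Acvr1c, an activin receptor gene of adipocytes, differed by −0.67. Adipoq differed by −0.055 near the top of the measured range, Lep (leptin) by −0.44 and Fasn (fatty acid synthase) by 0.013; all 3 overlapped, and Fasn turned to −0.0058 in median-centred and −0.014 in quantile-normalized arrays. Without 14-day array 4, Lep differed by −0.18, Adipoq by −0.036 and Fasn by 0.25.

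The shift was unequal over the arrays. Against the chow mean, the median of the adipocyte list was −0.079, −0.090 and 0.0030 in 5-day arrays 1 to 3 and −0.36 in 14-day array 4. It was 0.071 in 5-day array 4 and 0.066, 0.032 and 0.040 in 14-day arrays 1 to 3. Of the Adam7-high arrays, 14-day array 4 thus stood apart below chow, while the Adam7-low arrays all lay slightly above it. The list mean differed by −0.21 at 5 days and −0.49 at 14 days, and by −0.16 over the pooled arrays without 14-day array 4. Lists of other cells and of matrix had medians of like size: endothelium −0.24 with 16 of 16 lower on average, extracellular matrix −0.24 with 19 of 19, and mesothelium −0.35 with 10 of 11. Of these lists 0, 1 and 0 genes were lower with no overlap. Over the pooled arrays the lower median is therefore not particular to the adipocyte list. By day the lists were less alike. The mesothelium list mean differed by 0.23 at 5 days and −0.89 at 14 days. That of endothelium differed by −0.78 and −0.20, with 5-day array 4 the highest array at 11.38. That of extracellular matrix differed by −0.31 and −0.63.

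Metabolic and signalling lists had lower medians of like size in the Adam7-high than in the Adam7-low arrays. Of the fatty acid oxidation list 8 of 19 were lower with no overlap (7.64% of all genes, as for the counts that follow) and all 19 lower on average (median −0.27). Slc25a20, the carnitine-acylcarnitine carrier gene, differed by −0.45. Against the chow mean, the median of the fatty acid oxidation list was −0.014, −0.0245 and −0.00425 in 5-day arrays 1 to 3. In 14-day array 4 it was −0.36. It was 0.23 in 5-day array 4 and 0.25, 0.052 and 0.20 in 14-day arrays 1 to 3. For this list 5-day arrays 1 to 3 thus lay near chow and the Adam7-low arrays above it. Of the branched-chain amino acid breakdown list 8 of 16 were lower with no overlap and 16 lower on average (median −0.27). Bckdhb stood at 11.70, 11.73, 11.68 and 11.51 in the Adam7-high arrays, at 12.13, 12.08, 12.16 and 12.04 in the Adam7-low arrays and at 11.94, 11.93, 11.99 and 11.86 in chow arrays 1 to 4. Bckdhb, a subunit gene of the branched-chain ketoacid dehydrogenase, differed by −0.44, and its Adam7-high arrays lay below all chow arrays too. Of the insulin signalling list 9 of 14 were lower with no overlap and 14 lower on average (median −0.25), among them Grb14, an adaptor gene that restrains the insulin receptor (−0.64), and Pik3r1, a phosphoinositide 3-kinase subunit gene (−0.40). For Grb14 the mean of its probe sets differed by −0.35. Fatty acid and triglyceride synthesis had 3 of 18 lower with no overlap (median −0.21), and oxidative phosphorylation 1 higher and 1 lower of 29 (median −0.093). Against the chow mean, the branched-chain list median lay from −0.48 to −0.083 in the Adam7-high arrays. That of the insulin signalling list lay from −0.35 to −0.091 in them.

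The direction depended on signal level over all genes. For genes with a mean under 7, the median difference was 0.014 and 1.31% were lower with no overlap. For means from 11 to 13 the median was −0.12 and 16.1% were lower with no overlap, against 3.88% higher. Adipocyte genes are at high signal, so the list counts are to be read against these shares as well as the 7.64% over all genes.

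Macrophage genes did not follow the split. Of 21 measured, 0 had no overlap in either direction, where 6.69% of all genes were higher and 7.64% lower, and the median difference was −0.091. The list mean was 10.50 ± 0.61 against 10.59 ± 0.17 (SD, n = 4), and 10.86 ± 0.10 in chow. In 14-day array 4 it stood at 9.60, against 10.35 to 10.90 in the other high-fat arrays. The difference was 0.20 at 5 days and −0.99 at 14 days, and 0.21 in the pooled arrays without 14-day array 4. Adgre1, a macrophage surface receptor gene, overlapped, with a difference of −0.24 that turned to 0.097 in the 5-day arrays alone and 0.045 without 14-day array 4.

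The 4 genes lower by at least 1 unit were Fbp1, Igfbp1, Aadac and Aass. They are not members of the fixed liver list, which does not set them apart from liver transcripts. Fbp1 and Alb were both highest in 5-day array 4 and 14-day array 1, and whether these genes share a source was not tested. Fbp1 stood at 8.92, 9.69, 8.50 and 8.04 in the Adam7-high arrays, at 11.45, 10.94, 9.84 and 9.75 in the Adam7-low arrays and at 8.28, 10.37, 10.51 and 9.98 in chow arrays 1 to 4. Fbp1, a gluconeogenic enzyme gene, differed by −1.71; 5-day array 2 stood just under the Adam7-low arrays, and chow array 1 was as low as the Adam7-high arrays. Igfbp1, an insulin-like growth factor binding protein gene, differed by −1.70, Aadac, a lipid esterase gene, by −1.61, and Aass, a lysine breakdown enzyme gene, by −1.40. The liver list itself was lower on average in 14 of 14 genes, with a median of −1.90, but 0 had no overlap. Alb stood at 11.13, 13.84, 10.99 and 10.63 in the Adam7-high arrays, at 14.56, 14.52, 10.95 and 13.68 in the Adam7-low arrays and at 10.28, 10.04, 14.31 and 12.23 in chow arrays 1 to 4. Alb, the albumin gene, was high in 5-day arrays 2 and 4, chow array 3 and 14-day arrays 1 and 3, so it crossed the split. The liver list mean was 9.91 ± 1.10 in the Adam7-high arrays, 11.68 ± 1.78 in the Adam7-low arrays and 9.80 ± 1.69 in chow (SD, n = 4). Its part in the counts of lower genes was not tested.

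Smaller upward differences were found in the secretory pathway. Of the ER chaperone and secretory pathway list, 7 of 20 were higher with no overlap (6.69% of all genes) and 15 on average, with a median of 0.19. This median was 0.0865 at 5 days and 0.40 at 14 days. Manf stood at 11.51, 11.35, 11.62 and 12.22 in the Adam7-high arrays, at 10.71, 10.72, 10.61 and 10.73 in the Adam7-low arrays and at 10.52, 10.84, 10.63 and 10.63 in chow arrays 1 to 4. Manf, a secreted ER stress factor gene, differed by 0.98 and was highest in 14-day array 4. The glutathione and antioxidant list did not shift on balance, with 11 of 23 genes higher and 12 lower on average, 5 and 3 of them with no overlap, and a median of −0.017; Gstm6, a glutathione transferase gene, differed by 2.65.

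**Figure D5:**
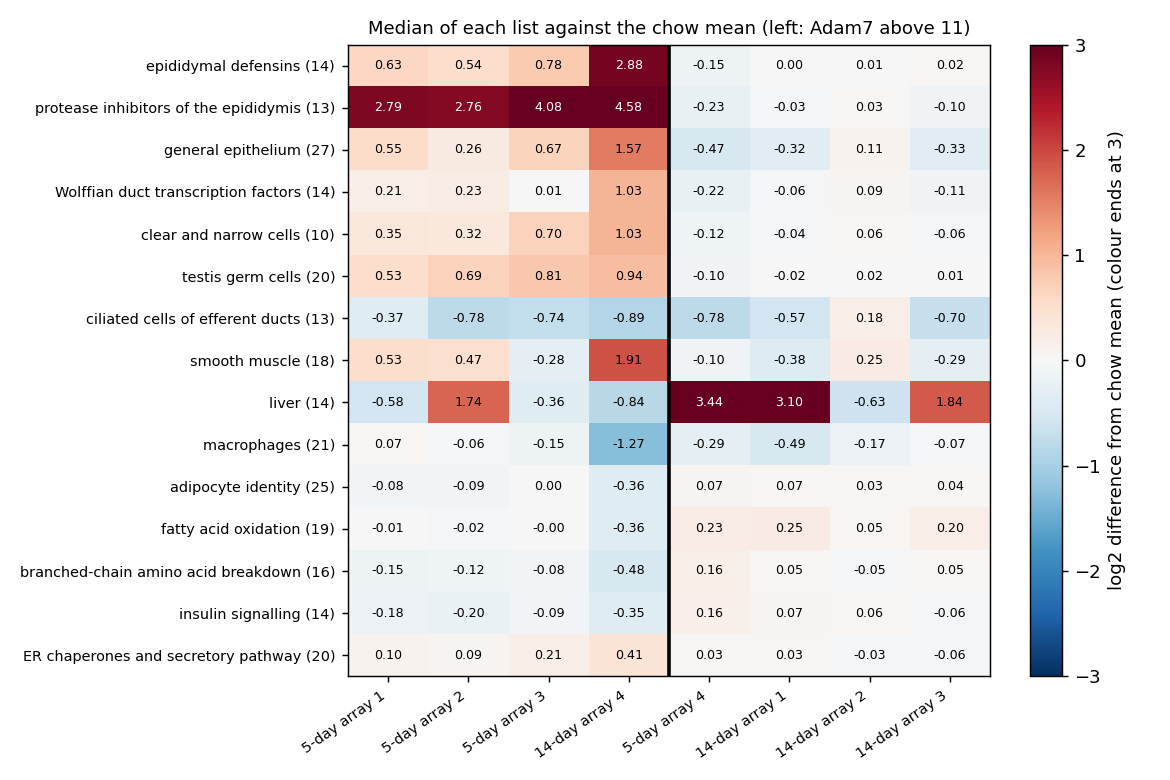
Each cell gives the median log2 difference from the chow mean over the measured genes of a list (number in brackets) in 1 high-fat array; the 4 Adam7-high arrays are left of the line. Protease inhibitors of the epididymis stand at 2.76 to 4.58 on the left and −0.23 to 0.025 on the right, while liver and smooth muscle cross the line.

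Comparisons by the labelled groups asked how the day of diet differed when these arrays were pooled by label. With limma on 13312 genes, 0 genes (0.0%) passed an adjusted p under 0.05 in each of 14 against 5 days, 5 days against chow and 14 days against chow, with 340, 1345 and 1061 genes at an unadjusted p under 0.05. With the side of the Adam7 threshold as a covariate, 171 genes (1.28%; 27 higher, 144 lower) were called at 14 against 5 days, 819 (6.15%; 649 higher, 170 lower) at 5 days against chow and 0 (0.0%) at 14 days against chow. Without 5-day array 4, the only Adam7-low array of its day, these counts were 2280, 1936 and 1. Without 14-day array 4, the only Adam7-high array of its day, they were 0, 595 and 1. Chow arrays were coded with the Adam7-low side. The covariate was defined on the Adam7 values of these arrays, and 1 array per day sets its effect apart from the day. The counts with it are therefore a description and no test of the split or the diet. These fits without 1 array were chosen after seeing the data.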

How the data were processed

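Each of 12 adipose RNA samples was measured on its own 1-colour Affymetrix array. Log2 values of 45098 probe sets were deposited by the authors as a table. The scale is judged from its range of 4.18 to 15.50 and near-equal array medians. The summary and normalization steps are not given in the sources used here, and nothing was renormalized. Of the probe sets, 61 were controls, 34945 had 1 gene symbol in the platform annotation, 932 several and 9160 none. Those with 1 symbol were matched to RefSeq genes by Entrez ID in 34741 cases. A gene was represented by its probe set of highest mean over the 12 arrays, which gave 18193 genes.

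High-fat arrays were split at an Adam7 signal of 11. A gene was higher or lower when all 4 arrays of a side lay beyond all 4 of the other and the means differed by at least 1 log2 unit. The members, gene lists and tests were chosen with earlier results of these data known. List counts without overlap have no minimum size. Named genes were Adam7, Spink8, the 15 largest higher and 10 largest lower among those without overlap, up to 4 genes per list, and 15 genes given at all times; the text names part of these. Genes picked after their values were seen are named as such.

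The 3 labelled groups entered a joint fit in limma 3.58.1 (R 4.3.3; eBayes with trend, genes at or above the 40th percentile of probe set means, Benjamini-Hochberg adjusted p under 0.05, two-sided). In the main fit, samples were not treated as pairs by replicate number. Deviations from the group mean correlated over 0.1 in 2 of 12 same-number pairs (−0.73 to 0.41). The lowest was between 5-day array 4 and 14-day array 4, which lie on opposite sides of the Adam7 split. The split enters these correlations, so they cannot tell whether samples of equal number belong together. Both procedures were tested on simulated data. As alternatives, arrays were centred on their median or quantile-normalized; others were different percentile filters, the mean or each of a gene's probe sets, differences of 0.5 or 2 units, each time point alone, the mean of both, Spink8 as the splitting gene, and leaving out each array. For limma they were also the replicate block, Adam7 covariates, no trend, robust eBayes and only the groups compared.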

Additional observations from a re-analysis of the deposited data

Results flagged for a closer look

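Within the labelled groups of 4, single arrays stood apart by a gap large against the range of the group (Dixon's ratio, which marks about 1 group in 20 by chance). Most of these genes define or follow the Adam7 split, so their array is the one that differs from its group in Adam7. In the 5-day group, array 4 was far below the other arrays for Adam7 at 7.40, Spink8 at 7.20, Spink10 at 5.46, Gm4988 at 5.66, Serpina1f at 6.11, Glb1l3 at 5.76, Ceacam10 at 5.78, BC048679 at 6.98, Wfdc15b at 7.35 and Odam at 4.99. It was also far below for Defb42 at 6.84, Tmed6 at 6.44, Wfdc6a at 6.96, Pwwp3b at 6.56, Ly6f at 7.45, Defb11 at 6.82, Defb9 at 5.22, Ptgds at 10.52, Cuzd1 at 9.43 and Cd52 at 10.24, and for Cdh1 at 7.02, Prom1 at 9.22, Cldn8 at 5.33, Smcp at 7.64, Odf1 at 7.06, Prm2 at 7.49, Crisp2 at 4.86, Cyp17a1 at 7.32 and Pate4 at 5.45. It was far above the others for Bckdhb at 12.13.

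In the 14-day group, array 4 was far above the others for Adam7 at 13.89, Spink10 at 13.54, Gm4988 at 13.40, Glb1l3 at 13.05, Ceacam10 at 13.27, BC048679 at 14.46, Wfdc15b at 14.48, Odam at 11.92, Defb42 at 14.26, Wfdc6a at 13.11 and Pwwp3b at 12.48. The same held for Ly6f at 13.32, Crisp4 at 10.13, Lcn5 at 14.54, Defb11 at 12.53, Defb9 at 10.18, Spint4 at 13.78, Eppin at 11.57, Cd52 at 14.75, Cldn8 at 11.49, Gata3 at 10.19 and Foxi1 at 8.90, and for Trp63 at 8.42, Krt5 at 9.93, Smcp at 13.15, Odf1 at 11.52, Prm2 at 10.35, Crisp2 at 8.41, Cyp17a1 at 10.75, Pate4 at 8.48, Manf at 12.22, Pcp4 at 13.15 and Muc15 at 11.89. It was far below for Pparg at 11.75 and Slc25a20 at 11.15. For list means it stood apart above for the caput and initial segment list at 8.88 and below for the adipocyte identity list at 13.20.

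In chow, array 1 was far below the others for Cdh1 at 5.20, Aqp9 at 7.54, Cldn2 at 8.05 and Aadac at 7.45, and array 3 was far above them for Lcn5 at 8.78.

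Between time points, the macrophage list mean was higher in the Adam7-high arrays at 5 days, with a difference of 0.20, and lower at 14 days, with −0.99. At each day 1 array was set against 3 and lay beyond them, so each difference rests on 1 array. This difference between days was not tested.

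Outside the named genes, 41 of 9160 probe sets with no gene name (0.448%) were higher in the Adam7-high arrays by at least 1 unit with no overlap, and 0 were lower.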

How the results depend on the processing

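The genes higher by at least 1 unit numbered 333 in median-centred arrays (333 shared with the 337), 340 in quantile-normalized arrays (335 shared) and 306 when probe sets of a gene were averaged (285 shared). They were 157 at or above the 60th percentile, where fewer genes enter, 860 in the 14-day arrays only, and 638 and 127 at 0.5 and 2 units. Leaving out single arrays gave 258 (without 14-day array 4) to 396. The lower genes were 2 at the 60th percentile, 188 in the 5-day and 332 in the 14-day arrays only, 83 and 0 at 0.5 and 2 units, and 4 to 69 as single arrays were left out: 69 without 14-day array 2, 39 without 5-day array 2, 12 without 14-day array 3 and 8 without 5-day array 1.

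The caput and initial segment mean difference was 3.43 and 6.24 at the 40th and 60th percentiles, which drop its low genes. This list holds Adam7, which set the split, and Spink8, and members can pass these filters through their Adam7-high arrays. Both values are therefore no support for a difference of the list. In the 14-day arrays only, list mean differences were 1.89 for caput and initial segment, 1.98 for general epithelium, 2.32 for smooth muscle, −0.49 for adipocyte identity and −0.99 for macrophages. As single arrays were left out, the 6 list means ran from 1.40 to 1.63 (caput and initial segment), 1.09 to 1.50 (general epithelium), 0.57 to 1.41 (smooth muscle), −0.30 to −0.16 (adipocyte identity), −0.22 to 0.21 (macrophages) and −2.60 to −1.27 (liver). For 65 named genes over 1068 settings, 60 values moved by more than the spread and 0 of those without overlap changed sign; Fasn, Gpx5 and Adgre1, which overlapped, did so in 13 settings.

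For limma, the Adam7 level as a covariate gave 26 genes at 14 against 5 days and 362 at 5 days against chow, and the Adam7 side 171 and 819. The added fits with the side and without hfd_5d replicate 4 gave 2280, 1936 and 1, and without hfd_14d replicate 4 gave 0, 595 and 1. Only the 2 groups compared gave 213 at 5 days against chow. Without single arrays the counts were 0 to 0 at 14 against 5 days, 0 to 123 at 5 days against chow (123 without 14-day array 4, 1 without 14-day array 2) and 0 to 20 at 14 days against chow (20 without 14-day array 2, 2 without 14-day array 4). With the replicate block, the counts were 0, 0 and 0. The cause of these moves was not tested.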
